A study of Mus musculus with 2 samples.

Results

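Box H/ACA small nucleolar RNA (snoRNA) genes were read from 1 RNA-Seq library of WT bone marrow-derived macrophages (BMDMs) and 1 library of ΔM BMDMs, in which the gene of tristetraprolin (TTP, *Zfp36*) is deleted in myeloid cells. The members are the genes whose symbol starts with SNORA and whose mean FPKM over both libraries was at least 1, so they were chosen by measured values. There were 260 such genes among 1032 SNORA genes in the table and among 10765 genes of any kind that reached this mean. FPKM is a gene's sequenced fragments divided by the library's depth and by an effective length, the number of positions at which a fragment could start, which for short genes is far below their length. Both genotypes are C57BL/6 mice of 7 to 9 weeks. The ΔM mice carry floxed TTP alleles and LysMCre, a Cre recombinase driven by the lysozyme M gene, and the WT mice were their littermates. All cells received 100 µM 4-thiouridine for 16 h and LPS at 10 ng/ml for 6 h. RNA was depleted of rRNA and fragmented, and cDNA of 200 to 300 nt was kept. The libraries carry no replicates, so every ratio below compares these 2 libraries and has no replicate check.

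Box H/ACA snoRNAs fold into a pair of hairpins, with the H box in the hinge between them and the letters ACA close to the 3′ end. Each associates with dyskerin, NHP2, NOP10 and GAR1, and most guide this complex to uridines of rRNA that are turned into pseudouridine. In mammals, most are cut out of introns of host genes after splicing, and both ends are then trimmed by exonucleases.

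*Zfp36* was at 65.3 FPKM in WT and 16.7 in ΔM, a log2 ratio of ΔM to WT of -1.90 after 1 FPKM was added to both values. All log2 ratios below are on this scale, which understates the change of low genes. All 8 macrophage markers were above 1 FPKM in the mean of both libraries. Their summed level was 4001 FPKM in WT and 2864 in ΔM, and *Lyz2*, the most abundant and the gene that carries the Cre insertion of LysMCre, was at 2481 and 1356 FPKM and makes up most of the difference in the sum. The median log2 ratio of the 8 was -0.04, with 4 above 0, and *Cd68* was at 388 FPKM in WT and 389.6 in ΔM. Markers of neutrophils and precursors, T cells, B cells, NK cells, dendritic cells, fibroblasts and erythroid cells were all below a mean of 1 FPKM, and the T cell list had the highest sum, at 1.03 FPKM in WT and 0.80 in ΔM. Of the 5 genes of the LPS response, 4 were higher in ΔM (median log2 ratio 0.49); *Tnf* was at 161 and 306 FPKM and *Il1b* at 875 and 741 in WT and ΔM. In such bulk libraries, fewer cells of a type and less RNA per cell cannot be told apart.

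The box H/ACA snoRNA genes with many fragments were mostly higher in ΔM, by less than 2-fold. The median log2 ratio of the 260 members was 0.38, and 187 were above 0. Over all 10765 genes the median was 0.03, and over 8078 protein-coding genes it was 0.00 (4000 above 0). The 138 box C/D snoRNA genes (symbols starting with SNORD), which guide methylation of rRNA, had a median of 0.36. Relative to the box C/D median, that of the box H/ACA genes was 0.017. The medians of both snoRNA classes were thus close at this mean. With at least 20 fragments in both libraries together, they were 0.48 for box H/ACA and 0.36 for box C/D genes.

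At least 2-fold higher values in ΔM were found for 59 members and at least 2-fold lower values for 56 (43 and 60 with ratios centred on the median of box C/D snoRNA genes). The background was 5.69% of all genes for the former and 3.61% for the latter. Since members were selected on the mean of the same libraries, the counts are a description. They rested on very few fragments, as the values of short genes show. A gene of 131 nt gains 3.71 FPKM in WT and 4.20 FPKM in ΔM from each fragment, and a gene of 70 nt gains 30.4 and 34.4 FPKM, because Cufflinks divides by the few positions at which a fragment of its assumed length distribution could start. At an estimated depth of 37222527 fragments in WT and 32918468 in ΔM, 231 of 260 members had whole numbers of fragments in both libraries, within 0.1 of a fragment. The remaining 29, of which 25 overlap an exon of a host transcript, had fractional estimates, which were rounded. The members together held 29330 fragments in WT and 34766 in ΔM, and 1 fragment was worth 1.13 times as much FPKM in ΔM at every length.

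Among the 122 members with at least 20 fragments in both libraries together, the median log2 ratio was 0.48. Of these, 113 were above 0 (76 with ratios centred on the median of box C/D genes), 12 were at least 2-fold higher in ΔM and 0 at least 2-fold lower. Centred in this way, their ratios lay between -1.02 and 0.95, so the calls of at least 2-fold higher were lost. At the same minimum and uncentred, 606 of 724 short RNA genes (members included) and 100 of 125 box C/D genes were above 0. Among the 138 members with under 20 fragments, 47 were at least 2-fold higher and 56 at least 2-fold lower, with uncentred ratios between -5.03 and 4.79. In 63 members a single fragment was seen, 37 of them in WT and 26 in ΔM. All 56 members with at least 2-fold lower values thus had under 20 fragments. The mean FPKM that chose the members does not separate these groups, as 1 fragment was enough to pass it.

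The spread of ratios narrowed with the number of fragments. In the 78 members with at least 100 fragments the ratios lay between -0.11 and 1.11 with a median of 0.50. Of these members, 77 were above 0 (51 with ratios centred on the median of box C/D genes). In the 44 members with 20 to 99 fragments the ratios lay between -0.66 and 1.31 with a median of 0.45. The 95% counting interval of the ratio, an exact conditional binomial interval that covers counting error only, lay above 0 for 64 of 122 members and below 0 for 0. Of all 724 short RNA genes with at least 20 fragments, 46.4% had an interval above 0 and 2.07% one below 0, while 19.8% were at least 2-fold higher and 1.24% at least 2-fold lower in ΔM. The share of members with an interval above 0 (52.5%) was close to this background, and the share at least 2-fold higher (9.84%) was below it. The median over these short RNA genes was 0.49. It was 0.36 over 125 box C/D snoRNA genes, 0.64 over 352 genes annotated as snRNA and 0.39 over 16 scaRNA genes, all with at least 20 fragments. The 31 miRNA genes of this kind were mixed, with a median of 0.35, 19 above 0 and 12 below. Of these 31, 11 had an interval above 0 and 7 one below 0. Their summed FPKM was 148910 in WT and 93870.5 in ΔM.

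**Figure D1:**
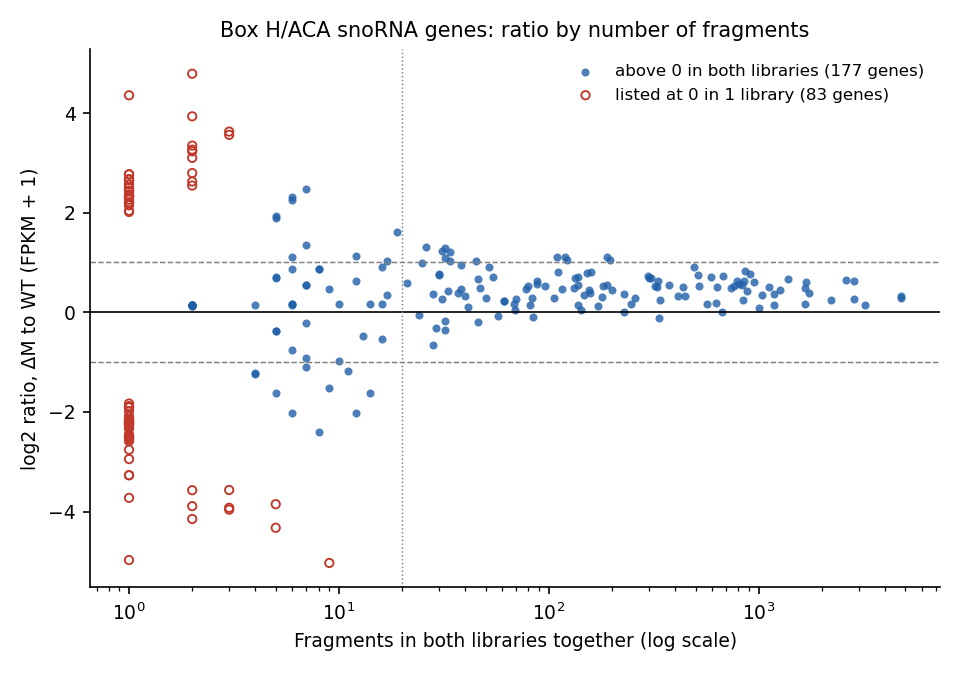
Log2 ratio of ΔM to WT (FPKM + 1) of the 260 box H/ACA snoRNA genes against their fragments in both libraries together, on a log scale. Filled points are 177 genes above 0 in both libraries and open circles 83 genes listed at 0 in 1 library; dashed lines mark 2-fold and the dotted line 20 fragments. Right of the dotted line 113 of 122 genes lie above 0 and none lies below the lower dashed line.

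Just inside the threshold of a mean of 1 FPKM lay SNORA28 on chr9 (2.56 FPKM in WT, 0 in ΔM), and 3 SNORA48 genes at 2.69, 2.75 and 2.75 FPKM in WT and 0 in ΔM, each with 1 fragment. Just outside lay SNORA73 on chr5 at 1.96 FPKM in WT and 0 in ΔM, and SNORA43 on chr7 at 0 in WT and 1.71 in ΔM. These were the only 2 SNORA genes above 0 that were not members. The other 770 SNORA genes were listed at 0 in both libraries.

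The 6 members with the highest mean FPKM were all higher in ΔM. Snora61 (ENSMUSG00000064949, mm9 chr4:131866155-131866284) was at 4146 FPKM in WT and 6534 in ΔM, a log2 ratio of 0.66 (counting interval 0.54 to 0.77). Snora16a (ENSMUSG00000065097, chr4:131865380-131865515) was at 3929 and 6072 FPKM, a ratio of 0.63 (0.52 to 0.74). Both lie in *Snhg12*, a non-coding host gene. SNORA63 in *Eif4a2* (ENSMUSG00000064382, chr16:23111374-23111502) was at 3257 FPKM in WT and 3661 in ΔM, and its ratio of 0.17 (0.03 to 0.31) was the smallest of the 6. With ratios centred on the median of box C/D genes it was -0.19, and the other 5 were between 0.13 and 0.32. SNORA70 in an intron of *Snx5* (ENSMUSG00000065725, chr2:144087325-144087462) was at 2303 and 3229 FPKM (0.49, 0.35 to 0.63). Snora7a in an intron of *Rpl32* (ENSMUSG00000064563, chr6:115757993-115758132) was at 2130 and 3228 FPKM (0.60, 0.46 to 0.74). The interval of SNORA63 does not overlap those of the other 5. SNORA58 in an intron of *Alkbh1* (ENSMUSG00000064938, chr12:88778632-88778767) was at 1858 and 2973 FPKM (0.68, 0.52 to 0.84). FPKMs of genes shorter than the fragments are not comparable as levels between genes, so that this order is one of FPKM and not of RNA molecules.

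By the number of fragments the order differed. Snora73a (ENSMUSG00000064387, chr4:131908690-131908894) held 2294 fragments in WT and 2477 in ΔM, and Snora73b (ENSMUSG00000065353, chr4:131908237-131908441) held 2247 and 2509, estimated from fractional values. Both are copies of U17, a box H/ACA snoRNA required for cleavage of pre-rRNA, and both lie in *Snhg3*. Snora73a was at 1874 FPKM in WT and 2289 in ΔM, with a ratio of 0.29 (0.21 to 0.37). Snora73b was at 1836 and 2318 FPKM, with a ratio of 0.34 (0.25 to 0.42). They were followed by SNORA53 in *Slc25a3* (ENSMUSG00000077167, chr10:90581036-90581281), the longest member at 246 nt, with 1615 and 1579 fragments and a ratio of 0.14 (0.04 to 0.25). Snora81 in *Eif4a2* had 1380 and 1475 fragments and a ratio of 0.27 (0.17 to 0.38). With ratios centred on the median of box C/D genes, these 4 were at -0.07, -0.03, -0.22 and -0.09.

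The 8 highest ratios were taken among the 130 members above 0 in both libraries with a mean of at least the members' median of 25.3 FPKM. Since these genes were picked for their ratio, their intervals overstate how firmly it is known. SNORA70 on chrX (ENSMUSG00000064740, chrX:79646430-79646566, no host gene) led with 15.9 FPKM in WT and 50.4 in ΔM, from 5 and 14 fragments, a ratio of 1.60 (0.11 to 3.49). SNORA48 in *Gsr* (ENSMUSG00000088856) was at 21.5 and 54.7 FPKM, a ratio of 1.31 from 8 and 18 fragments. SNORA30 on chr14 (ENSMUSG00000064581) was at 38.1 and 94.8 FPKM (1.29, 10 and 22 fragments). SNORA26 on chr1 (ENSMUSG00000077648) was at 48.6 and 115 FPKM (1.23, 10 and 21 fragments), and SNORA57 in *St3gal2* (ENSMUSG00000065100) at 26.9 and 63.7 FPKM (1.21, 11 and 23 fragments). In these 5 genes the lower bound of the interval was at most 0.18.

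The other 3 had over 100 fragments. SNORA71 (ENSMUSG00000064405, chr2:158185534-158185665) overlaps an exon of the non-coding *9430008C03Rik* and was at 135 FPKM in WT and 294 in ΔM, with a log2 ratio of 1.11 (0.55 to 1.75). Snora5c (ENSMUSG00000065686, chr11:6520322-6520457) overlaps an exon of *Tbrg4* and was at 212 and 456 FPKM, a ratio of 1.10 (0.66 to 1.57). SNORA84 (ENSMUSG00000087963, chr13:49779670-49779802) lies in an intron of *Iars*, the isoleucyl-tRNA synthetase gene, and was at 144 and 311 FPKM, a ratio of 1.10 (0.54 to 1.69). Its host was at 6.46 FPKM in WT and 3.79 in ΔM (-0.64), in the opposite direction.

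All of the 8 lowest ratios had intervals that span 0, that is, a difference was not detectable at this depth. SNORA44 on chr6 (ENSMUSG00000065754, chr6:59655740-59655868, no host gene) was at 43.0 FPKM in WT and 13.3 in ΔM, from 11 and 3 fragments (-1.63, interval -4.18 to 0.22). SNORA4 on chrX (ENSMUSG00000064665) was at 38.0 and 17.2 FPKM (-1.10, 5 and 2 fragments). SNORA19 in *Sf3b4* (ENSMUSG00000084686) was at 74.2 and 46.6 FPKM (-0.66, 18 and 10 fragments). These 3 had the lowest ratios of the 8. SNORA65 on chr11 (ENSMUSG00000064671) was at 39.1 and 26.5 FPKM (-0.54), SNORA3 on chr12 (ENSMUSG00000077603) at 29.7 and 21.0 (-0.48) and SNORA38 in *Pawr* (ENSMUSG00000065653) at 65.3 and 50.5 (-0.36). SNORA32 in *Rock2* (ENSMUSG00000064620) was at 80.4 and 64.1 FPKM (-0.32). Snora19 in *Eif3a* (ENSMUSG00000065167, chr19:60850233-60850364) was at 94.0 and 81.8 FPKM, a ratio of -0.20 (-1.12 to 0.70) from 26 and 20 fragments, beside -0.28 for its host.

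Of the members, 37 were listed at 0 in WT and 46 in ΔM. The highest FPKM among them was that of SNORA25 in an intron of *Gm11659* (ENSMUSG00000065379, chr11:104112326-104112458), at 31.7 in WT and 0 in ΔM. It had 9 fragments in WT, and the upper bound of its log2 ratio was -0.80, the only interval below 0 among the 260 members. SNORA33 in *Rnf149* (ENSMUSG00000064936) was at 19.1 FPKM in WT, from 5 fragments, and 0 in ΔM. SNORA32 on chr13 (ENSMUSG00000088727) reached 30.4 FPKM in WT with 1 fragment on its 70 nt. SNORA40 (ENSMUSG00000084521) was at 26.7 FPKM in ΔM from 2 fragments, and SNORA19 on chr5 (ENSMUSG00000089491) at 19.5 FPKM in ΔM from 1. All but the first of these have intervals that span 0.

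The members were compared with their host genes, to see whether snoRNA and host moved alike. A host gene is annotated on the same strand and contains the snoRNA gene. Of the 260 members, 144 had a host (116 within an intron, 28 overlapping an exon of an annotated transcript), 115 had none, and Snora15 was not in the annotation used. The 144 members lay in 117 host genes. For the 82 hosts that reached a mean of 1 FPKM, the median log2 ratio was 0.07, with 48 above 0, 0 at least 2-fold higher and 1 at least 2-fold lower in ΔM. That host was *Nop56*, a core protein gene of box C/D particles, at 45.8 FPKM in WT and 22.3 in ΔM (-1.0). SNORA51, which overlaps an exon of *Nop56*, was at 446 and 720 FPKM (0.69).

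For 80 members with at least 20 fragments and a host of at least 1 FPKM, the member's log2 ratio was higher than that of its host in 60, by a median of 0.29 over all 80. The median ratio was 0.07 over the 63 hosts and 0.49 over short RNA genes of all kinds with at least 20 fragments. Over 63 such hosts, the host ratio and the median ratio of its members gave a Pearson's r of -0.15 and a Spearman's rho of -0.13. These points share the same libraries and are genes, not replicates. Of 104 members with at least 20 fragments and a host, 27 overlap an exon of the host. Fragments there can be assigned to either gene, so the values of member and host are not separate measurements. The added 1 FPKM also makes ratios of low hosts smaller than those of their members. Among 81 hosts of members with at least 20 fragments, 73 were protein-coding, including 15 ribosomal protein genes, and 17 held at least 2 such members.

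In *Snhg12*, Snora16a, Snora44 and Snora61 had ratios of 0.62 to 0.66, beside 0.86 for the host (20.5 FPKM in WT, 38.0 in ΔM). In *Snhg3*, Snora73a and Snora73b had 0.29 and 0.34, beside 0.54 for the host (155 and 226 FPKM). Snora44, Snora61 and Snora73a overlap an exon of their host. Of the 8 non-coding hosts with members of at least 20 fragments, these 2 had a higher ratio than the median of their members. The other 6 had a lower one on the scale with 1 FPKM added. This addition shrinks the ratios of low hosts more than those of their members. Among the 6 were *9430008C03Rik* (2 FPKM in WT, 3.84 in ΔM) and *Snhg4* (0.4 and 0.58), the latter under a mean of 1 FPKM. For such low hosts the order of host and members depends on the added value, so no conclusion is drawn from this split. In *Eif4a2*, the gene of a translation initiation factor, 4 members had ratios from 0.17 to 0.52, beside 0.49 for the host (74.1 and 104 FPKM). All of these members overlap an exon of *Eif4a2*. In *Taf1d*, which encodes a subunit of an RNA polymerase I factor, SNORA18, SNORA8 and SNORA1 had ratios of 0.15, 0.09 and -0.10, with intervals that span 0. SNORA18 was at 2212 FPKM in WT and 2446 in ΔM, and the host was at 0.69 and 0.60 FPKM. The *Taf1d* members had the lowest median (0.09) of the 17 hosts with at least 2 members.

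In *Rpl27a*, SNORA3 and Snora3 had ratios of 0.13 and 0.17, below the 0.52 of the host. Snora3 overlaps an exon of *Rpl27a*. In *Rpsa*, Snora62, SNORA62 and SNORA73 had ratios of 0.01, 0.24 and 0.38, and the host of 0.19 (3.65 and 4.29 FPKM). The intervals of Snora62 (-0.22 to 0.23) and SNORA73 (0.24 to 0.52), which lie in introns of the same gene, do not overlap. In *Eif4a1*, the intervals of SNORA67 (0.45, 0.29 to 0.61) and SNORA48 (0.76, 0.57 to 0.96) overlap only narrowly, beside 0.27 for the host. Both genes lie over an exon of *Eif4a1*. In *Tbrg4*, Snora5c had 1.10 (0.66 to 1.57) and SNORA5, with 36 and 33 fragments, 0.05 (-0.68 to 0.77), so that their intervals overlap, beside 0.11 for the host.

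**Figure D2:**
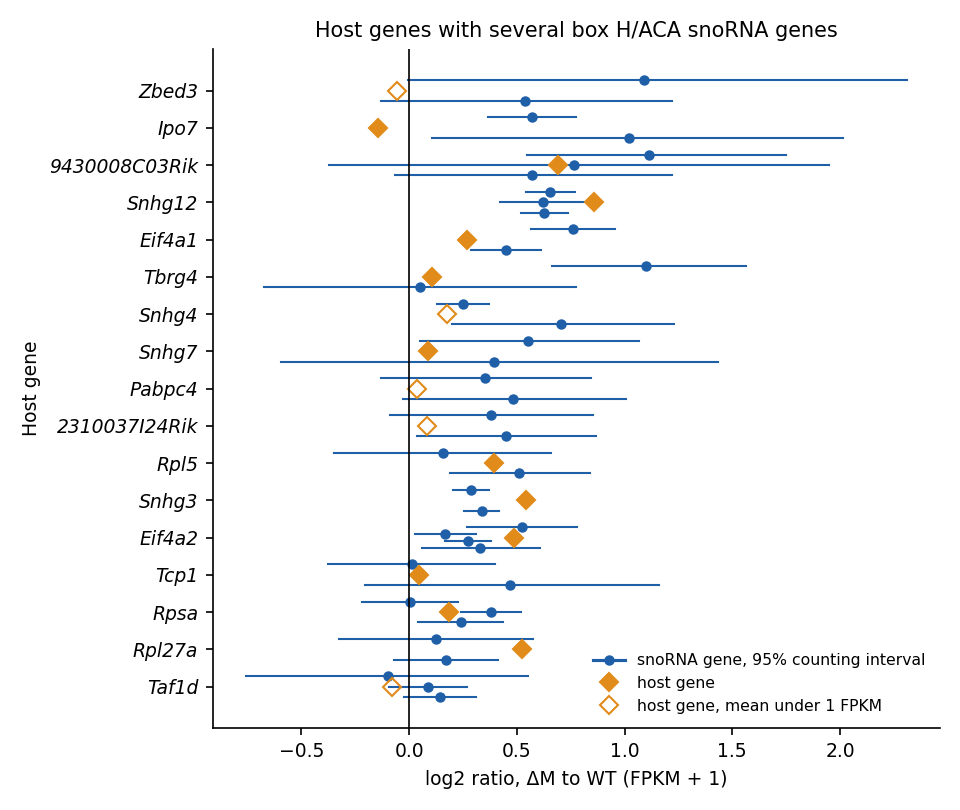
Log2 ratio of ΔM to WT (FPKM + 1) of members with at least 20 fragments, for the 17 host genes with at least 2 of them, ordered by the members' median. Circles are snoRNA genes with 95% counting intervals, and diamonds are the hosts, open where the host's mean was under 1 FPKM. The members of *Snhg12* lie between 0.62 and 0.66 and those of *Taf1d* between -0.10 and 0.15.

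Many SNORA genes are copies of a few families, which are taken here as all symbols with the same number. The 260 members belong to 72 families, and 69 families had a member with at least 20 fragments. Most of the fragments of a family usually came from few copies. The SNORA17 family had 612 genes in the table, of which 29 were members, with ratios between -3.27 and 3.56. Only Snora17 in *Snhg7* (217 and 318 FPKM, 0.55) and SNORA17 in *Gsk3b* (148 and 164 FPKM, 0.14) had at least 20 fragments. A single copy held 99.2% of the fragments of the SNORA24 and of the SNORA61 family.

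The U17 family (SNORA73) had 8 members with ratios between -0.17 and 0.91. The highest was SNORA73 in *Ero1lb* (11.2 and 22.0 FPKM, 0.91, 0.12 to 1.87) and the lowest SNORA73 on chr14 without a host (16.0 and 14.0 FPKM, -0.17, -1.30 to 0.90). SNORA73 in *Rpsa* was at 683 and 889 FPKM (0.38). The 3 copies with the most fragments thus lay between 0.29 and 0.38. In the SNORA48 family, 14 members ranged from -3.85 to 2.35, and the 5 with at least 20 fragments from 0.67 to 1.31, with a median of 0.83. The 2 largest, in *Eif4a1* (976 and 1654 FPKM, 0.76) and *Nap1l1* (898 and 1595 FPKM, 0.83), had intervals that start at 0.57 and 0.63. In the SNORA70 family, 11 members ranged from -4.15 to 1.60, and the 5 with at least 20 fragments from 0.44 to 1.04. In both families each copy with at least 20 fragments was higher in ΔM.

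In the SNORA42 family, 11 members ranged from -2.76 to 3.93, and the 2 with at least 20 fragments were at 0.48 and 0.56. In the SNORA32 family, 9 members ranged from -4.97 to 0.94 (-0.32 and 0.94 in the 2 with at least 20 fragments). The 6 SNORA19 members ranged from -3.57 to 4.36 (-0.66 and -0.20). On the uncentred scale, SNORA19 was the only family with at least 2 such members in which these lay below 0, and their intervals span 0. Centred on the median of box C/D genes, other families lay below 0 as well, among them SNORA3 (-0.44 to -0.19). The 6 SNORA36 members ranged from -0.92 to 3.63 (both of at least 20 fragments at 0.29). The 6 SNORA5 members ranged from -3.72 to 1.10 (0.05 to 1.10 in 4), and the 6 SNORA71 members from -2.24 to 2.32 (0.57 to 1.11 in 3). The 6 SNORA40 members ranged from -2.55 to 4.79 (0.54 in 1) and the 6 SNORA51 members from -0.75 to 3.26 (0.69 in 1). A part of a family cannot have a wider range than the whole, so the narrower ranges with at least 20 fragments are a description.

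Of the families with 5 members, SNORA2 ranged from -2.09 to 3.10 (0.28 and 0.38 in the 2 with at least 20 fragments) and SNORA3 from -0.48 to 2.67 (-0.08 to 0.17 in 3). SNORA24 ranged from -3.57 to 2.32, SNORA55 from -1.22 to 0.48 and SNORA63 from -3.27 to 2.77. With at least 20 fragments these were at 0.37, at 0.32 to 0.48 and at 0.17 to 0.33. SNORA65 ranged from -0.54 to 0.99 (0.27 to 0.99 in 3) and SNORA67 from 0.14 to 2.54 (0.26 and 0.45 in 2).

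Of the families with 4 members, SNORA26 ranged from 0.53 to 1.23, and all 4 had at least 20 fragments. SNORA25 ranged from -5.03 to 2.25, and none of its members had 20 fragments. SNORA38 ranged from -0.36 to 2.63 (-0.36 and 0.52 with at least 20 fragments) and SNORA4 from -2.95 to 0.52 (0.52 in 1). SNORA26 thus had the highest minimum of these 4 families. SNORA44 ranged from -1.63 to 0.62 (0.58 and 0.62 in 2), SNORA66 from 0.16 to 1.93 (0.16 and 0.51 in 2) and SNORA9 from -2.01 to 0.50 (0.22 and 0.50 in 2). SNORA74 ranged from -0.11 to 0.71, with 3 of at least 20 fragments. Its copy in *Timm23* (171 and 158 FPKM, -0.11, -0.44 to 0.20) was the only gene of at least 100 fragments in the list of members with an uncentred ratio below 0. Centred on the median of box C/D genes, 51 of the 78 members with at least 100 fragments were above 0.

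The sequences of the members were read from the NCBIM37 (mm9) genome on the annotated strand, to see what the members with many fragments share. The letters ANANNA of the H box were looked for in the middle of each gene, at least 1/3 of its length from either end, and the letters ACA at 3 nt before its 3′ end. Both were found in 146 of 259 members (56.4%) and in 1 of 138 box C/D snoRNA genes (0.725%). Of the members with at least 100 fragments 73.1% held both, close to 69.8% of those with 20 to 99 and 69.6% of those with 5 to 19, so that this share does not set members with many fragments apart from those with 5 to 19. Of those with 2 to 4 fragments, 44.8% held both. Of those with 1 fragment, 0 of 22 SNORA17 genes and 14 of 41 others (34.1%) did. Among SNORA genes listed at 0 in both libraries it was 1 of 583 for SNORA17 genes (0.172%) and 65 of 187 for the others (34.8%). ANANNA alone is a weak match, present in 90.0% of members and in 31.9% of box C/D genes, and ACA was present in 62.5% and 2.17%. The searched middle is longer in members (median length 132 nt) than in box C/D genes (76 nt).

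The share inside a host gene was highest among members with many fragments. A host gene contained 94.9% of the members with at least 100 fragments and 69.8% of those with 20 to 99. It contained 32.6% of those with 5 to 19 fragments and 20.7% of those with 2 to 4. Of those with 1 fragment, 13.6% of SNORA17 genes and 39.0% of the others lay in a host gene. The share was 5.49% for the SNORA17 genes listed at 0 and 26.2% for the others listed at 0. Lengths hardly differed, with medians of 134 nt at 100 fragments or more and 130 nt at 1 fragment. The ratio did not follow the boxes. Its median was 0.48 in 87 members with at least 20 fragments and both boxes (81 above 0) and 0.50 in 34 without both (31 above 0).

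**Figure D3:**
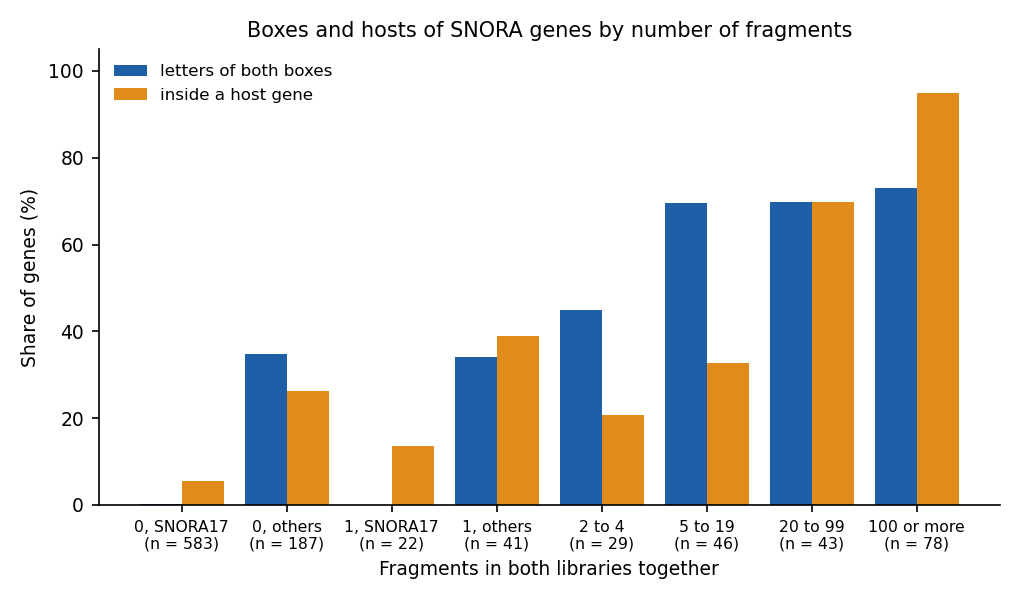
Share of SNORA genes (in percent, from 0) with the letters of both boxes and share inside a host gene, for classes of fragments in both libraries together. Genes at 0 and at 1 fragment are split into SNORA17 genes and others, and n is the number of genes in the annotation. The share with both boxes is 69.6% at 5 to 19 fragments and 73.1% at 100 or more, and the share inside a host gene 32.6% and 94.9%.

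Copies of a family can share fragments that do not map uniquely, and such fragments were not kept. A SNORA gene at least 95% identical over its length was found for 54 of 259 members (20.8%), and an identical one for 5, so values of these genes are uncertain. Among members with at least 20 fragments, the median ratio was 0.53 in 33 with such a copy and 0.47 in 88 without.

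The sequences below are those of members on which the comparisons turn, 5′ to 3′, with the ANANNA match nearest the middle and the ACA at 3 nt before the end in capitals where they were found. The 3 snoRNA genes of *Snhg12* are shown first, on the plus strand, with Snora44 at chr4:131865856-131865984. The SNORA44 copy on chr6 (minus strand) follows, which had the lowest ratio of those ranked and is 90.7% identical to Snora44 (12 edits).
Snora16a: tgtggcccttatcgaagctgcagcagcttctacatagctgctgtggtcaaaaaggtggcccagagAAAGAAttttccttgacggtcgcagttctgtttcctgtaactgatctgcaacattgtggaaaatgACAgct
Snora44: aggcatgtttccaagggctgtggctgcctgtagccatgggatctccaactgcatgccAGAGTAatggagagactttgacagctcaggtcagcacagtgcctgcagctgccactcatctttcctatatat
Snora61: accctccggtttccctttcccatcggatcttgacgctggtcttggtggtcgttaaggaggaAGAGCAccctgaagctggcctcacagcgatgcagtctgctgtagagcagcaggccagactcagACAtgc
SNORA44 on chr6: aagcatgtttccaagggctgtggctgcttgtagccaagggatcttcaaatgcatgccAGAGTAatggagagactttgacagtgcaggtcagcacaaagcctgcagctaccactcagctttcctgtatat

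Both U17 copies of *Snhg3* (minus strand) are 96.6% identical over 205 nt, with 7 edits, and had close ratios of 0.29 and 0.34.
Snora73a: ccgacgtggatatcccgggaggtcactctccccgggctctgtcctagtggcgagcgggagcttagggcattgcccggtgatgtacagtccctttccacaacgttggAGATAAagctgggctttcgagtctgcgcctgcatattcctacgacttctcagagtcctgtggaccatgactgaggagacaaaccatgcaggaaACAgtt
Snora73b: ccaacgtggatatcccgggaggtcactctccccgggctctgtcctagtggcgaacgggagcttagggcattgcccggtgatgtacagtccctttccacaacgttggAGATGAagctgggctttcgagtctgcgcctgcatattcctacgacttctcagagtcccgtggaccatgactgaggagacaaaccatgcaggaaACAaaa

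The SNORA70 gene in *Snx5* and the copy on chrX with the highest ratio (both on the minus strand) are 90.6% identical (13 edits). The former had 741 fragments in WT and 919 in ΔM and the latter 5 and 14.
SNORA70 in Snx5: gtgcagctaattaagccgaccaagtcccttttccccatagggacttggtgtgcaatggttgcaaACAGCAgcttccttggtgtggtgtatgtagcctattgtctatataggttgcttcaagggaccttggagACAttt
SNORA70 on chrX: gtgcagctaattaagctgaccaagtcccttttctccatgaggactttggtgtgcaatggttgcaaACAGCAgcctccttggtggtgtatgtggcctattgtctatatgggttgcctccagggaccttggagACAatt

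The 3 genes with over 100 fragments among the 8 highest ratios have unrelated family numbers. SNORA71 and Snora5c are on the minus strand and SNORA84 on the plus strand.
SNORA71: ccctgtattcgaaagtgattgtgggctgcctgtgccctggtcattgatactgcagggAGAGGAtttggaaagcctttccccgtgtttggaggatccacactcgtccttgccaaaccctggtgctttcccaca
Snora5c: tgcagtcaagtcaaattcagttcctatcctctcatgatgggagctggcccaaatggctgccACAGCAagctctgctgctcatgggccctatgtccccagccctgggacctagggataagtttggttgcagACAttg
SNORA84: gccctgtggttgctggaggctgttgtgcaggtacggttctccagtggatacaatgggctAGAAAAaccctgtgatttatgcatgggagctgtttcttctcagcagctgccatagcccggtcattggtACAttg

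Among members with at least 20 fragments, 108 genes under 150 nt had a median ratio of 0.51 (quartiles 0.28 and 0.70). The 14 genes of 150 nt or more had a median of 0.28 (quartiles 0.17 and 0.37). Over all 122, Pearson's r between length and ratio was -0.13 and Spearman's rho -0.05, across genes of the same libraries. Short RNA genes of all kinds had medians of 0.37 from 60 nt, 0.41 from 100 nt, 0.55 from 130 nt, 0.98 from 160 nt and 0.35 from 200 to under 300 nt. The part that fragment sizes, or recovery of short RNA, have in the higher median of short RNA genes was not tested, and genotype and library cannot be told apart.

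The genes of the box H/ACA particle showed no common shift. Of 10 such genes, 5 reached a mean of 1 FPKM, with a median ratio of 0.01, and 0 were at least 2-fold different. *Dkc1*, the pseudouridine synthase dyskerin, was at 0.72 FPKM in WT and 0.51 in ΔM. *Nhp2* was at 3.37 and 3.39 FPKM (0.01) and *Nop10* at 3.73 and 4.79 (0.29). *Gar1* was at 0.18 and 1.05 FPKM, under a mean of 1. Of the assembly factors, *Ruvbl2* was at 14.7 and 16.2 FPKM (0.13), *Nufip1* at 1.90 and 1.49 (-0.22) and *Nolc1* at 1.02 and 1 (-0.01). *Naf1* (0.18 and 0.22 FPKM), *Shq1* (0.26 and 0.54) and *Ruvbl1* (0.47 and 0.56) were low in both libraries.

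Of 4 box C/D particle genes, 3 reached a mean of 1 FPKM, with a median of -0.49, 0 above 0 and 1 (*Nop56*, given above) at least 2-fold lower. *Nop58* was at 2.40 and 1.42 FPKM (-0.49), *Nhp2l1* at 1.51 and 1.01 (-0.32), and *Fbl*, the methyltransferase fibrillarin, at 0.22 and 0.19, under this mean. Genes of snoRNA release and trimming had a median of 0.12 over 6 of 7 genes, with 0 at least 2-fold different. *Dbr1*, which debranches intron lariats, was at 5.56 and 7.70 FPKM (0.41), the highest ratio of the list. The exonuclease genes *Xrn2* (58.8 and 56.6 FPKM, -0.05), *Exosc10* (25.5 and 26.9, 0.08) and *Dis3* (1.20 and 1.08, -0.08) had close values in both libraries. *Parn* was at 0.63 and 0.61 FPKM. *Papd5*, a poly(A) polymerase, was at 3.89 and 4.69 FPKM (0.22), and *Toe1* at 4.01 and 4.59 (0.16).

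Of 12 other pseudouridine synthase genes, the 5 that reached a mean of 1 FPKM had ratios below 0, from -0.51 for *Pus1* (2.63 and 1.55 FPKM) to -0.18 for *Pusl1* (4.43 and 3.80), with a median of -0.24. Of 19 genes of RNA polymerase I and 47S processing, 15 reached a mean of 1 FPKM, with a median of -0.11, 4 above 0 and 0 at least 2-fold different. The lowest was *Polr1c* (22.8 and 16.2 FPKM, -0.47) and the highest *Rrn3* (5.42 and 6.60, 0.24). The scaRNAs, which guide modification of spliceosomal RNAs in Cajal bodies, had 27 of 43 genes at this mean, with a median of 0.36 and 22 above 0. Scarna3a was at 837 and 1425 FPKM (0.77) and Scarna9 at 821 and 1169 (0.51). The nuclear long RNA *Malat1* was at 84.1 and 127 FPKM (0.59) and *Neat1* at 3.39 and 5.08 (0.47), while *Meg3* was at 0.01 and 0.05. *Terc*, *Kcnq1ot1* and the 11 other abundant short RNAs of the lists were not found under these symbols and were not analysed here.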

How the data were processed

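RNA-Seq was measured in 1 WT and 1 ΔM library, assigned to the columns by their names. The authors trimmed reads with Cutadapt, used Segemehl and the mm9 genome for alignment, discarded reads without a unique position and let Cufflinks compute FPKM on Ensembl exons. The deposited table holds FPKM with 2 decimals for 37451 genes, 1 without a number in ΔM. No counts were used in a count model. Members and lists were chosen with earlier results of these data known.

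Log2 ratios were calculated after adding 1 FPKM. Fragments were recovered from short genes (under 300 nt, annotated as snoRNA, snRNA, miRNA, misc_RNA or rRNA) by a search for the library size at which FPKMs become whole multiples of 1 fragment, under the default fragment lengths of Cufflinks (mean 200, SD 80 nt). Of the genes above 0 used in the search, 92.7% in WT and 90.8% in ΔM were whole within 0.1. Library size and shortest fragment were chosen to make these same genes whole, so this share is no independent check. With a step not fitted to them, 20% would be whole at random. The search was tested on simulated data. Short RNA genes in the text were at least 60 nt long, with a mean of at least 1 FPKM. Counting intervals (95%) are exact and assume independent fragments, so they cover counting error only. No test over members was made.

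Hosts, strands and gene types came from GENCODE M1 (NCBIM37). It held 37039 of the 37451 genes with FPKM values, and 1031 of 1032 SNORA genes. If several genes contained a member, that with the highest mean FPKM was taken. Identity is 100% minus edits per length of the longer gene (edlib 1.3.9.post1). Python 3.11.15, pandas 2.3.3, NumPy 2.4.6 and SciPy 1.17.1 were used. Genes named are the 8 highest and 8 lowest ratios among members above 0 in both libraries with a mean of at least the members' median, the 6 highest FPKMs, the 5 highest listed at 0 in 1 library, those next to the threshold, the extremes of families of at least 4 members, and lists of at most 10 genes. SNORA genes named beside host genes, by fragments or as 1 of few exceptions were chosen after their values were seen, as were genes named from longer lists.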

Additional observations from a re-analysis of the deposited data

How the results depend on the processing

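The median log2 ratio of the 260 members (0.38) stayed between 0.34 and 0.50 in 13 of 14 alternatives (other pseudocounts, minimum means and subsets of members, and centring on all genes). Centred on box C/D snoRNA genes it was 0.017. The counts at least 2-fold higher and lower (59 and 56) were far less stable. They were 17 and 15 with a pseudocount of 10 FPKM, 22 and 10 with a minimum mean of 10 FPKM or with members above 0 in both libraries, 5 and 0 with a minimum mean of 100 FPKM, and 2 and 0 among 22 symbols with 1 gene in the table. With a fold of 1.5 they were 96 and 60. With a fold of 3 (43 and 51), centred on all genes (56 and 57) or centred on box C/D genes (43 and 60), more members were lower than higher. Of alternatives chosen after seeing the data, at least 20 fragments gave 12 and 0, at least 100 fragments 5 and 0, and genes with both boxes 28 and 19. Centred on box C/D genes as well, members with at least 20 fragments lay between -1.02 and 0.95. Those with at least 100 fragments reached at most 0.75, so neither set kept a gene at least 2-fold higher. Whole fragments (56 and 56) and no copy at least 95% identical (48 and 45) gave counts within 1.5-fold. The fall in these counts goes with the removal or damping of genes with few fragments. The host median (0.07) lay between 0.02 and 0.09 in all 3 alternatives. Of the 122 members with at least 20 fragments, 122 kept their ratio within the counting interval under other pseudocounts, with 0 sign changes, and under centring on all genes, with 2. Centred on box C/D genes, 72 did and 37 changed sign, among them the 4 members with the most fragments. Of the 22 members listed for the highest FPKM or for the highest or lowest ratios, 22 did under the former settings and 16 under the latter. The 5 listed at 0 in 1 library have intervals without an upper or a lower end and are not counted, and other members under 20 fragments were not run singly. No paired analysis was possible because each genotype has 1 library. Ratios of genes under 20 fragments are limited by depth.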
